A study of Mus musculus with 8 samples.

Results

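Chemokine receptors are the surface receptors through which leukocytes and other cells follow gradients of chemokines, and 9 of them were examined in the infarcted mouse heart: Ccr1, Ccr2, Ccr7, Cxcr2, Cxcr3, Cxcr4, Cxcr6, Cx3cr1 and Ackr3. Probes were taken where the array names a RefSeq transcript of one of these genes, and each gene was described by its brightest probe with signal well above background on 4 or more of the 8 arrays. The array held 11 probes for the 9 genes. Of these, 10 probes passed the detection filter, with at least 1 for each gene, among 15156 genes with such a probe in all. RNA came from the ventricles of male mice of the C57BL\6 background, 24 hours after surgery. In 4 MI mice the anterior interventricular artery was permanently occluded, and 4 sham-operated mice underwent the same surgery without ligation. Each mouse had 1 array, labeled in 1 colour. The labels do not separate infarcted from spared myocardium, so each value is an average over the ventricles.

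Most of these receptors are coupled to inhibitory G proteins, and ligand binding releases G protein subunits that activate phosphoinositide 3-kinase gamma and Rac, which drive directed movement. After coronary occlusion, neutrophils are known to enter the myocardium first, followed by monocytes that are recruited from bone marrow and spleen. Cxcr2 and Ccr1 are classical receptors of neutrophils, Ccr2 of inflammatory monocytes, Cx3cr1 of patrolling monocytes and resident macrophages, Ccr7 of mature dendritic cells and naive T cells, and Cxcr3 and Cxcr6 of activated lymphocytes. Cxcr4 is found on most leukocytes and retains cells in the bone marrow. Ackr3, also written Cxcr7, is an atypical receptor that binds Cxcl12 and scavenges it without signaling through G proteins.

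The 8 arrays lay on 1 slide and were read in 1 scan, in 2 rows with 2 arrays of each group per row. Per array, 58.6% to 66.4% of spots were well above background, and arrays of the same group correlated with r between 0.990 and 0.995. All 8 cardiomyocyte markers examined passed the detection filter, and their summed intensity was 2154000 to 3243000 in the MI group, beside 2345000 to 3350000 in the sham group. Values below are normalized log2 intensities, put on the spike-in scale of the authors' own normalization, which gives each array a factor and a small additive constant. The median probe differed by 0.12 on the log2 scale between MI and sham-operated mice under this scaling and by -0.02 when arrays were scaled to their 75th percentile. Groups were compared with limma, and a probe was called when its difference was over 2-fold and its Benjamini-Hochberg adjusted p over 34038 probes was under 0.05. Each receptor was further put to a two-sided exact permutation test, whose p cannot go below 0.0286 with 4 mice per group. Intensities of different probes are not compared, because brightness also depends on the probe.

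Of the 9 receptors, 6 were called higher in MI mice (Cxcr2, Ccr1, Cxcr6, Cxcr4, Ccr2 and Ccr7) and 0 were called lower, while 3 did not pass the test (Cxcr3, Ackr3 and Cx3cr1). Among the 6, Ccr1 met the detection filter through the MI arrays alone. Over all probes, 3.48% were called, 3.07% higher and 0.405% lower. Of all called probes 88.3% were higher in MI mice, a share that was 72.2% after scaling to the 75th percentile and 69.0% after quantile normalization. The 6 called receptors also had every MI mouse above every sham-operated mouse, which held for 8.44% of the 33865 probes with a value on all arrays. The median difference of the 9 receptors was 1.15 on the log2 scale, beside 0.12 over all probes. RNA was taken from whole tissue, so that more cells carrying a receptor and more receptor RNA in each cell cannot be told apart.

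**Figure D1:**
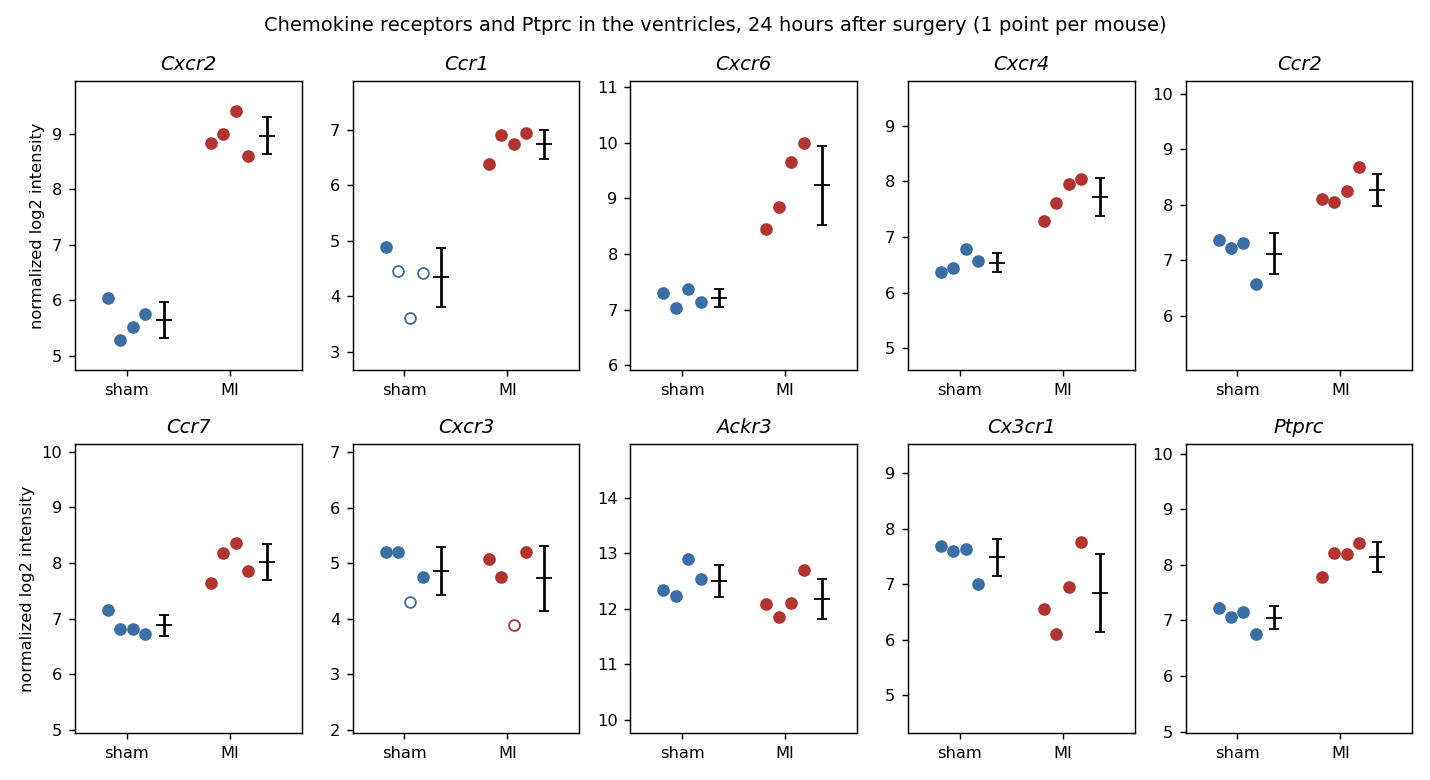
Normalized log2 intensity of each chemokine receptor and of the pan-leukocyte gene Ptprc in sham-operated mice (blue) and MI mice (red), 1 point per mouse, with replicates 1 to 4 from left to right and the mean ± SD beside them. Open points were not well above background, and every panel spans the same number of log2 units. The groups do not overlap for Cxcr2, Ccr1, Cxcr6, Cxcr4, Ccr2, Ccr7 and Ptprc and overlap for Cxcr3, Ackr3 and Cx3cr1.

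Cxcr2, the receptor through which neutrophils respond to Cxcl1, Cxcl2, Cxcl3 and Cxcl5, showed the largest difference of the 9. Its log2 values were 8.84, 8.998, 9.40 and 8.60 in the MI mice, and 6.04, 5.29, 5.52 and 5.76 in the sham-operated mice. The 4 MI mice lay close together and far above the sham-operated mice, with means of 8.96 ± 0.34 and 5.65 ± 0.32 (SD, n = 4 each). The difference of 3.31 (SE 0.22) on the log2 scale equals 9.90-fold, with a 95% confidence interval from 7.19-fold to 13.6-fold (limma adjusted p = 9.57e-11). Before normalization, its processed intensity was 427.2 to 627.0 after MI and 21.3 to 62.4 after sham operation.

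Ccr1, which binds Ccl3, Ccl5, Ccl6 and Ccl9 and is carried by neutrophils and monocytes, was well above background in 4 of 4 MI mice but in only 1 of 4 sham-operated mice. Its log2 values were 6.37, 6.90, 6.73 and 6.93 after MI, against 4.89, 4.46, 3.61 and 4.42 after sham operation. The lowest MI mouse was above the highest sham-operated mouse, which was also the one in which Ccr1 was detected. The difference was 2.39 (SE 0.24) on the log2 scale, or 5.24-fold (limma adjusted p = 9.04e-08). Ccr1 met the detection filter through the 4 MI arrays alone, so this fold is not a measured size, and its SE and p rest on the faint sham signals. In the other 3 sham-operated mice the signal was not well above background, and the size of the difference moved with the scaling: it was 3.31 after scaling to the 75th percentile, 0.85 after normexp background correction and 0.48 with a refitted spike-in model, each with the same direction and an adjusted p under 0.05.

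Cxcr6, the receptor of the transmembrane chemokine Cxcl16 and a marker of activated and tissue-resident T cells and natural killer T cells, was measured by 2 probes. The brighter probe gave log2 values of 8.45, 8.84, 9.66 and 9.99 in the MI mice and of 7.30, 7.03, 7.37 and 7.13 in the sham-operated mice. MI mice differed more among themselves (9.24 ± 0.71, SD, n = 4) than sham-operated mice did (7.21 ± 0.16, SD, n = 4), yet the groups did not overlap. The difference was 2.03 (SE 0.26) on the log2 scale, equal to 4.08-fold (limma adjusted p = 4.92e-06). The other Cxcr6 probe gave a difference of 2.09 (SE 0.26, limma adjusted p = 3.49e-06).

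The 250 bases before the transcription start are shown for Cxcr2, Ccr1 and Cxcr6, the receptors with the largest differences. Those of Cxcr3, a receptor that was not called, are shown beside them. Cxcr3 was faint and a fall in it was not excluded, so it does not stand for an unchanged receptor. The sequences are those of RefSeq on GRCm38.p6, written 5′ to 3′ along the strand of the gene, and capitals mark each match to GAGGAA, the core bound by the myeloid factor PU.1, on either strand.
Cxcr2, chr1:74153744-74153993, plus strand: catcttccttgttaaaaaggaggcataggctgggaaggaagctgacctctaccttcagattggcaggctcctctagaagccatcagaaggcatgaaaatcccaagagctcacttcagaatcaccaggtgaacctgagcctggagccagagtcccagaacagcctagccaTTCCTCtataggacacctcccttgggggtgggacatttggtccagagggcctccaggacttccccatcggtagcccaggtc
Ccr1, chr9:123968693-123968942, minus strand: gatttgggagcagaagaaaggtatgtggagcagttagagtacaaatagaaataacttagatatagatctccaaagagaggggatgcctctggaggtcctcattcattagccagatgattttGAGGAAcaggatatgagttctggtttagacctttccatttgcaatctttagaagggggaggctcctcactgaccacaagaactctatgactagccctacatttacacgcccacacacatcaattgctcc
Cxcr6, chr9:123806227-123806476, plus strand: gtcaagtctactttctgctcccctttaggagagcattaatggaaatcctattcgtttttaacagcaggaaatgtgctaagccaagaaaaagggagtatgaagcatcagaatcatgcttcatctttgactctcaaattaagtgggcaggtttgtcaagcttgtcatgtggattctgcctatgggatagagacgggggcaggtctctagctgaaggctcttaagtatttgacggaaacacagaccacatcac
Cxcr3, chrX:101734148-101734397, minus strand: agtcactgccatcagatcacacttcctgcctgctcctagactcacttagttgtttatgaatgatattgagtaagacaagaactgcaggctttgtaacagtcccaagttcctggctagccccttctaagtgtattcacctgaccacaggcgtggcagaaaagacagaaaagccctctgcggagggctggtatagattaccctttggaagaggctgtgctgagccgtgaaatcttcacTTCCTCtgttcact
Upstream sequence was matched for 8 of the 9 receptors. GAGGAA was found in 3 of them, namely Ccr1, Cxcr2 and Cxcr3, and in 23.4% of all 32536 promoters of the same length. The hypoxia response core ACGTG (16.7% of all promoters), the AP-1 motif TGANTCA (6.73%), the consensus of NF-kB (3.92%) and the C/EBP motif TTGCGCAA (0.166%) were each found in 0 of the 8, also searched on both strands.

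Cxcr4, Ccr2 and Ccr7 rose by similar amounts, just over 2-fold. Cxcr4, the signaling receptor of Cxcl12, had log2 values of 7.28, 7.62, 7.95 and 8.04 in MI mice against 6.37, 6.45, 6.78 and 6.56 in sham-operated mice. Its groups were separate, and the difference was 1.18 (SE 0.22, 2.26-fold, limma adjusted p = 0.000531). Ccr2, the receptor of Ccl2, Ccl7 and Ccl12 that releases monocytes from the bone marrow, had values of 8.11, 8.04, 8.26 and 8.68 after MI and of 7.37, 7.23, 7.32 and 6.57 after sham operation. The sham-operated mouse with the lowest Ccr2, replicate 4, lay well below the others, and without it the difference fell from 1.15 to 0.97, below 2-fold. With all mice it was 2.22-fold (SE 0.23 on the log2 scale, limma adjusted p = 0.00112).

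Ccr7, which guides mature dendritic cells and naive T cells to lymph nodes along Ccl19 and Ccl21, had log2 values of 7.64, 8.19, 8.37 and 7.86 in the MI mice and of 7.16, 6.81, 6.82 and 6.73 in the sham-operated mice. Again no MI mouse fell into the range of the sham-operated mice. The difference was 1.14 (SE 0.21, 2.20-fold, limma adjusted p = 0.00077). With the refitted spike-in model, whose larger additive constant compresses low signals, Cxcr4, Ccr2 and Ccr7 differed by 0.50, 0.59 and 0.54 on the log2 scale, and with normexp by 0.68, 0.75 and 0.71, so that they kept their direction and an adjusted p under 0.05 but were less than 2-fold higher.

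Cxcr3, the receptor of the interferon-induced chemokines Cxcl9 and Cxcl10 on effector T cells and natural killer cells, was faint. It was well above background in 3 of 4 mice of each group, with log2 values of 5.07, 4.74, 3.89 and 5.19 after MI and of 5.201, 5.196, 4.30 and 4.75 after sham operation. The ranges of the groups overlapped almost entirely. The difference of -0.14 (95% confidence interval -0.68 to 0.40) had a limma adjusted p of 0.828. On this scale a 2-fold difference in either direction lay outside the interval, and smaller ones were not resolved. At such low signal the additive constant draws differences toward 0, so the interval does not exclude a 2-fold fall. The difference of Cxcr3 was -0.48 after scaling to the 75th percentile and -0.65 after quantile normalization, and neither passed.

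Ackr3 gave values of 12.08, 11.85, 12.10 and 12.69 in MI mice and of 12.33, 12.23, 12.89 and 12.53 in sham-operated mice. The groups overlapped through MI replicate 4. The difference was -0.32 (95% confidence interval -0.78 to 0.15, limma adjusted p = 0.478, exact permutation p = 0.229). A 2-fold fall or rise of Ackr3 was outside its interval too.

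Cx3cr1, the fractalkine receptor, was lower in 3 of the MI mice than in any sham-operated mouse. Its log2 values were 6.56, 6.10, 6.96 and 7.76 in MI mice and 7.70, 7.60, 7.64 and 6.997 in sham-operated mice. MI replicate 4 had the highest value of all 8 mice, and sham replicate 4 lay below the other sham-operated mice. The difference was -0.64 (95% confidence interval -1.20 to -0.09), which did not pass the adjustment over all probes (limma adjusted p = 0.167, exact permutation p = 0.229). Without MI replicate 4 it was -0.95 (limma adjusted p = 0.0127). In the first row of arrays alone it was -1.32 and in the second row alone 0.04. A further Cx3cr1 probe was well above background on only 3 arrays and was not retained.

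The rows of the slide were also examined for the other receptors. With the row as a block, the number of receptors called was 6, as without it. In the first row alone, with 2 mice per group, the log2 differences of the 6 called receptors ranged from 0.78 for Ccr2 to 3.25 for Cxcr2, and 3 of them (Cxcr2, Ccr1 and Cxcr6) were called. In the second row alone they ranged from 1.32 for Cxcr4 to 3.36 for Cxcr2, and all 6 were called. Ackr3 differed by -0.32 and -0.31 in the first and second row.

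**Figure D2:**
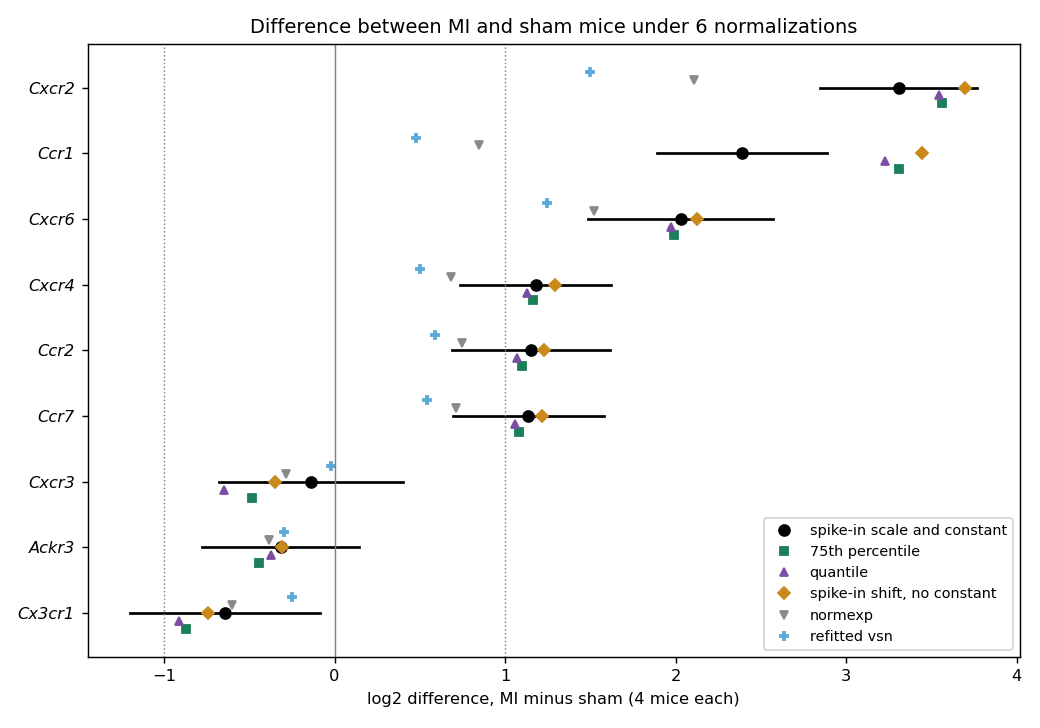
Log2 difference of each receptor between MI and sham-operated mice (horizontal axis, 4 mice each) under 6 normalizations, with the 95% confidence interval as a black line for the values of the report and dotted lines at a 2-fold difference. The 6 called receptors are to the right of 0 under each normalization, and normexp and the refitted spike-in model (vsn) place Ccr1, Cxcr4, Ccr2 and Ccr7 below 2-fold. Cxcr3, Ackr3 and Cx3cr1 are to the left of 0 under each.

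The receptors were also set against Ptprc, which encodes the pan-leukocyte antigen CD45, within each array, so that the scale of an array drops out, though its additive constant does not. Ptprc itself was 2.14-fold higher in MI mice (limma adjusted p = 0.000906). Over 14 differences between genes, 10 separated the groups completely (exact permutation p = 0.0286, adjusted p = 0.04). Each pair held a gene that was itself called higher in MI mice, so a separation can repeat that call. How often other pairs of genes separate the groups was not counted. Relative to Ptprc, Cxcr2 was higher in MI mice by 2.21 on the log2 scale and Cxcr6 by 0.93. With normexp these values were 1.31 and 0.72, and with the refitted spike-in model 0.95 and 0.69, with separate groups in each case. Ccr1, not well above background in 3 of 4 sham-operated mice, was higher relative to Ptprc by 1.29, but by 0.05 with normexp and by -0.07 with the refitted model, and the groups then overlapped (exact permutation p = 0.771 and 0.257). The difference from Ptprc changed by -1.74 for Cx3cr1 and by -1.41 for Ackr3, and in both cases 4 of 4 MI mice were below all sham-operated mice. For Cxcr3 the difference of -1.24 did not pass (exact permutation p = 0.0571, adjusted p = 0.0727), although the groups were separate with normexp (-1.09) and with the refitted model (-0.57).

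Cxcr4, Ccr2 and Ccr7 differed by amounts close to that of Ptprc. Relative to Ptprc they differed between groups by 0.08, 0.06 and 0.04 on the log2 scale, with exact permutation p of 0.657, 0.629 and 0.857, and in each case the MI and sham-operated mice overlapped. Because 4 mice per group leave wide margins, these p-values do not show that the receptors followed Ptprc exactly.

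**Figure D3:**
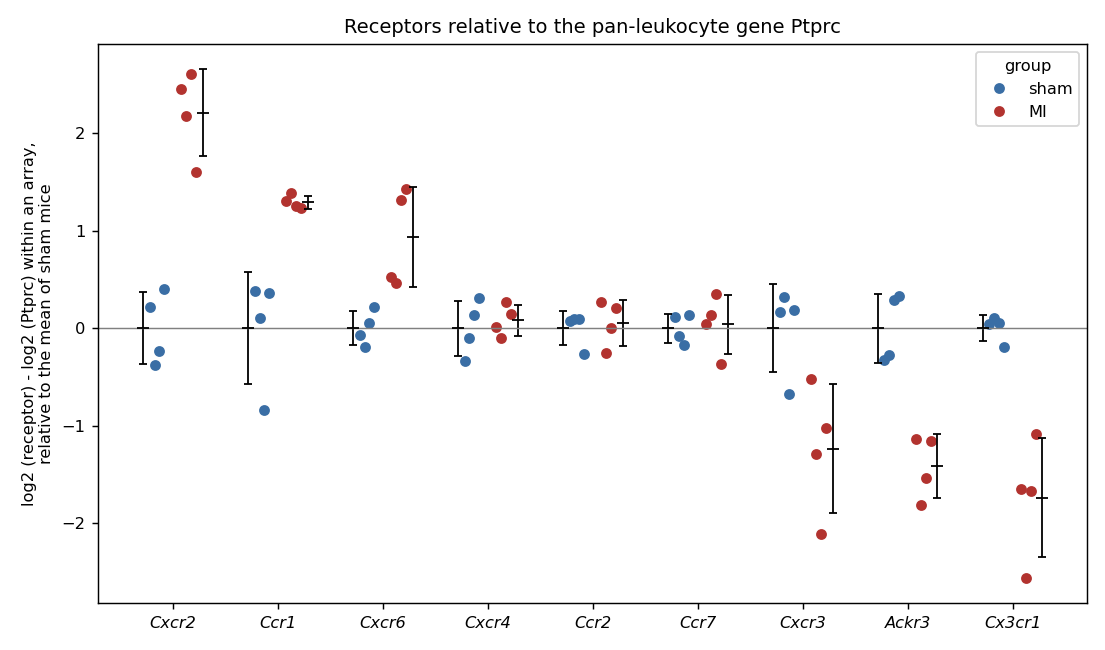
Within-array log2 difference of each receptor from Ptprc, centred on the mean of the sham-operated mice, with 1 point per mouse (blue, sham; red, MI) and mean ± SD in black. Cxcr2, Ccr1 (3 of its 4 sham values not well above background) and Cxcr6 lie above the sham range, Cxcr4, Ccr2 and Ccr7 lie within or across it, and Ackr3 and Cx3cr1 lie below it in all 4 MI mice. Because Ptprc itself was higher in MI mice, a gene without change would also tend to lie below.

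Other pairs of receptors separated the groups too. Ccr2 and Cx3cr1, which distinguish inflammatory from patrolling monocytes and resident macrophages, moved apart by 1.80 on the log2 scale: Ccr2 minus Cx3cr1 was 0.93 to 1.94 after MI and -0.43 to -0.32 after sham operation. MI replicate 4 had both the highest Cx3cr1 and the highest Ccr2 value. Cxcr2 gained 2.13 over Cxcr4. Ccr1 gained 1.24 over Ccr2, but 0.10 with normexp and -0.11 with the refitted model, where the groups overlapped (exact permutation p = 0.629 and 0.343). Cxcr4 and Ackr3, which share the ligand Cxcl12, moved apart by 1.49. Cxcr3 minus Cxcr6 was lower in MI mice by 2.17, where Cxcr6 itself was 2.03 higher and Cxcr3 differed by -0.14. With spots not well above background left out, the difference of this pair was -1.99 in 3 mice per group (exact permutation p = 0.1). On the scale of the authors' normalization, each of these 5 pairs had an exact permutation p of 0.0286 (adjusted p = 0.04).

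The ligands of the 9 receptors were examined as a list of 19 genes, of which 18 had a probe, and all 18 passed the detection filter. Of these, 11 were called higher in MI mice and 0 lower, and 14 had a limma adjusted p under 0.05, beside 6.30% of all probes higher and 1.31% lower at that level. Their median difference was 1.48 on the log2 scale. The ligands of Cxcr2 were all called: Cxcl3 differed by 4.12 (SE 0.32), Cxcl2 by 3.68 (SE 0.28), Cxcl1 by 2.70 (SE 0.29), Cxcl5 by 2.31 (SE 0.27) and Ppbp, a platelet chemokine, by 1.08 (SE 0.23). The ligands of Ccr2 were also called, with 2.64 for Ccl2, 2.30 for Ccl7 and 1.84 for Ccl12. Of the ligands of Ccr1, Ccl3 (2.75) and Ccl6 (1.12) were called, whereas Ccl5 (0.94) and Ccl9 (0.81) passed the adjusted p but not 2-fold. After scaling to the 75th percentile, the differences of Ppbp (0.97) and Ccl6 (0.996) were below 2-fold.

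For the other receptors, the ligand and the receptor were not both called. Cxcl10, well above background in 3 of 4 sham-operated mice, was 4.09 higher on the log2 scale (SE 0.28, limma adjusted p = 1.04e-10) and Cxcl9 0.88 higher (limma adjusted p = 0.00835), while their receptor Cxcr3 did not pass the test. Cxcl16 differed by 0.14 (limma adjusted p = 0.788) while its receptor Cxcr6 was 4.08-fold higher. Cxcl12, shared by Cxcr4 and Ackr3, differed by -0.12 (limma adjusted p = 0.837), Cx3cl1 by 0.24 (limma adjusted p = 0.66) and the Ccr7 ligand Ccl19 by 0.63 (limma adjusted p = 0.235), and none of these passed. Ccl21a had no assigned probe on the array and was not measured.

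**Figure D4:**
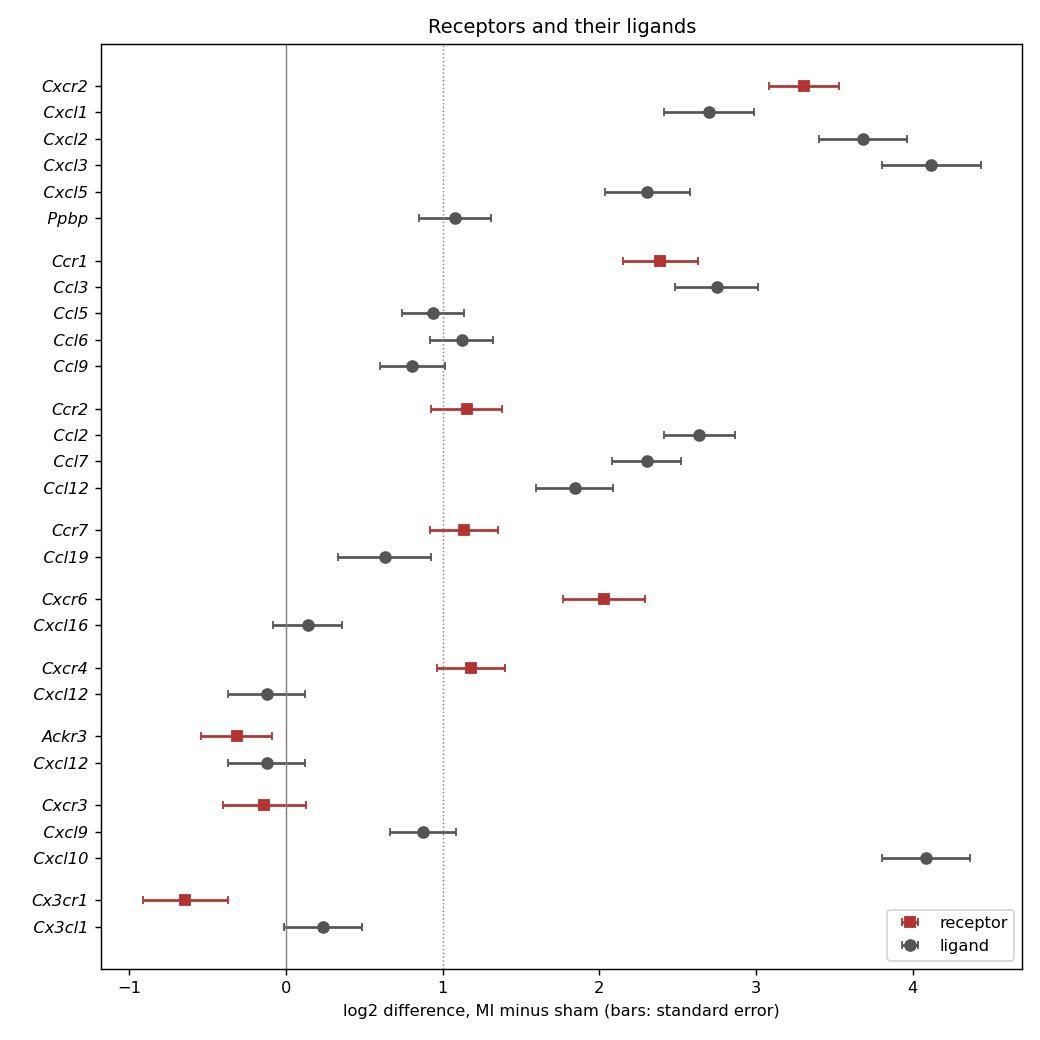
Log2 difference between MI and sham-operated mice for each receptor (red squares) and its ligands (grey circles), with standard errors as bars and a dotted line at a 2-fold rise. The ligands of Cxcr2 and Ccr2 lie to the right of 2-fold with their receptors, Cxcl16 lies near 0 beside a raised Cxcr6, and Cxcl10 lies at 4.09 beside a Cxcr3 near 0.

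Among 14 other chemokine receptors, 10 passed the detection filter, 2 were called higher and 0 lower, and the median difference was 0.50. The called genes were Ccr1l1, a close relative of Ccr1 (2.37, SE 0.23; whether either probe also binds the other transcript was not tested), and Cxcr1, a further receptor of neutrophil chemokines (1.397, SE 0.22), which was well above background in 1 of 4 sham-operated mice. The scavenging receptors Ackr1 (0.83) and Ackr2 (0.81) passed the adjusted p without reaching 2-fold. Ackr4 (-0.20) and Ccrl2 (-0.60) did not pass.

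Of 13 retained genes of receptor signaling, 6 were called higher, among them the Src kinase Fgr (1.94), the GTPase Rac2 (1.58), its exchange factor Vav1 (1.02), and the catalytic and regulatory subunits of phosphoinositide 3-kinase gamma, Pik3cg (1.03) and Pik3r5 (1.27). The broadly expressed G protein genes Gnai2 (0.27), Gnai3 (0.32), Gnb1 (0.52) and Gng2 (0.39) did not pass the test. The median over this list was 0.74. Of 12 genes that desensitize or regulate the receptors, 2 were called higher, Rgs16 (1.76), which accelerates the shut-off of G proteins, and Arrb2 (1.05), the arrestin that internalizes the receptors. The G protein-coupled receptor kinases Grk2 (0.38), Grk3 (0.37), Grk5 (0.40) and Grk6 (0.55) did not pass. Neither did Arrb1 (0.19), Rgs1 (0.02), Rgs2 (-0.28), Rgs3 (0.49) and Rgs18 (-0.10), while Rgs19 (0.91) passed the adjusted p without reaching 2-fold.

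Markers of the cells that carry these receptors moved with some of them. Of 10 neutrophil markers, 7 were called higher, among them Retnlg (4.24), Il1r2 (3.26), S100a8 (3.02) and S100a9 (2.79), and their summed intensity was 255000 to 372900 in MI mice against 76730 to 121600 in sham-operated mice. Csf3r (0.08), Lcn2 (0.64) and Camp (0.64) did not pass. Of 7 retained monocyte markers, 2 were called higher, among them Chil3 (2.79), with summed intensities of 86940 to 127200 and 53300 to 92310 in MI and sham-operated mice. F13a1 (0.32), Fn1 (0.53) and Ly6c1 (0.30) did not pass, while Plac8 (0.95) and Vcan (0.81) passed the adjusted p without reaching 2-fold. Ly6c2 had no assigned probe on the array. Of 7 retained dendritic cell markers, 2 were called, Itgax (1.56) and Fscn1 (1.05), and the sums over the list did not overlap (1180 to 1815 and 726.0 to 907.8). Flt3 (0.26), Zbtb46 (0.29), Clec9a (0.07) and Batf3 (0.59) did not pass. Cd209a (0.76) passed the adjusted p without reaching 2-fold, and Xcr1 was not retained.

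Of 10 resident macrophage markers, 0 were called and 0 had a limma adjusted p under 0.05, with a median of -0.04 on the log2 scale and sums of 14330 to 27300 and 19330 to 28570 in MI and sham-operated mice. Of 8 retained T cell markers, 0 were called, and Cd3d (0.90) and Lck (0.65) passed the adjusted p. Their sums overlapped (6314 to 10840 and 6091 to 11630), and Cd3g and Cd8a were not retained. Of 7 natural killer cell markers, only 3 were retained, and Ncr1, Klrb1c, Klrk1 and Eomes were not, these being well above background on fewer than 4 arrays; the sums of the retained ones overlapped (633.0 to 799.8 and 584.5 to 670.0). Of the B cell markers, 5 were retained and 0 called, with a median of 0.67. Cd79b (0.73) passed the adjusted p (limma, 0.0321), and the B cell sums did not overlap (344.2 to 416.2 in MI mice, 230.1 to 308.3 in sham-operated mice).

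Of the markers of the cells of the heart wall, 0 of 8 for cardiomyocytes, 0 of 8 for endothelial cells and 0 of 8 for fibroblasts were called, and 1 of 8 for smooth muscle and pericytes was (Acta2, 1.46). Endothelial sums were 26010 to 37750 after MI and 32190 to 42540 after sham operation, and fibroblast sums 45630 to 113600 and 82850 to 138100. Smooth muscle and pericyte sums were higher in every MI mouse (33080 to 54640 against 23150 to 32010), and so were platelet sums (19580 to 30630 against 15660 to 17850). Such sums weigh the brightest probes most. The median difference of the smooth muscle and pericyte list was -0.05, with Tagln at -0.07 and Rgs5 at -0.34. Besides Acta2, only Cspg4 (0.89) passed the adjusted p. Pf4 (0.53), the brightest platelet gene, did not pass. The platelet list of 5 genes had 1 call, Ppbp. The part of these cell types in the values of the receptors was not tested.

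**Figure D5:**
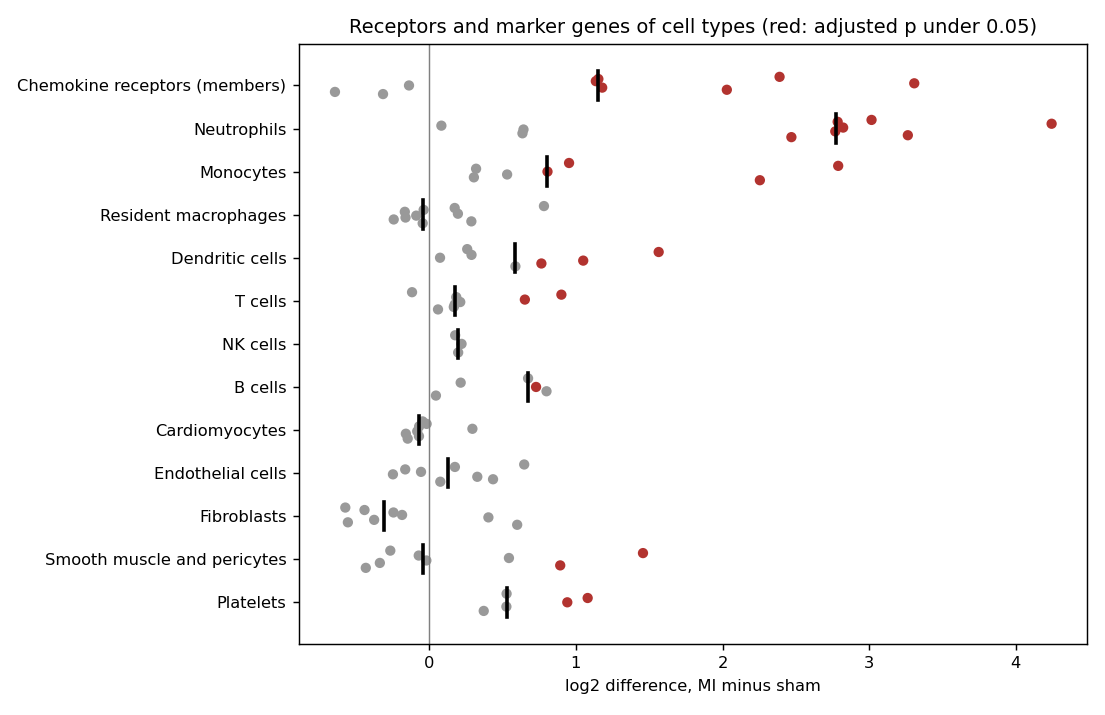
Log2 difference between MI and sham-operated mice (horizontal axis) for the 9 receptors and for the retained genes of 12 lists of cell type markers, 1 point per gene, red where the limma adjusted p was under 0.05, with the median of each list as a black bar. The neutrophil list has the largest median (2.78), and the lists of resident macrophages, natural killer cells, cardiomyocytes, endothelial cells and fibroblasts hold no red point.

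The genes whose centred log2 values over the 8 mice lay nearest to each receptor were sought among 18088 probes, by the root mean square difference. For Cxcr2, these were Fpr2, a formyl peptide receptor of neutrophils, at 0.15 on the log2 scale, and Hbegf, a growth factor of the epidermal growth factor family, at 0.20, where Cxcr2 itself spanned 4.11 over the mice. For Ccr2 the nearest was Emb (0.11), and for Cxcr4 they were the calcium-binding protein gene S100a11 (0.13) and the oxidoreductase gene Ero1a (0.14). For Ccr7 they were Chrna6 (0.15) and Usp18 (0.16), the latter an interferon-induced protease.

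Ccr1 and Cxcr6 had no neighbour as close. Lilra6 (0.30) and Gm9733 (0.31) were nearest to Ccr1, and Rras2 (0.29) and Havcr2 (0.31), the gene of the immune checkpoint Tim-3, were nearest to Cxcr6. For Cx3cr1 the nearest were the matrix genes Lum (0.15) and Col3a1 (0.17), of which Lum is on the fibroblast list and differed by -0.56 between MI and sham-operated mice. For Ackr3 they were Zhx1 (0.05) and Gid4 (0.07), and for Cxcr3, whose values were close to background, Ephx4 (0.18) and Adamts19 (0.18). These distances over 8 mice are descriptions without a test.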

How the data were processed

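RNA of the ventricles of 8 mice was hybridized to 1 array each, and groups were taken from the sample labels. Per the file headers, the deposited intensity is the processed signal of Feature Extraction 11.0.1.1, with background subtracted and surrogate values for dim spots, so that low values are imprecise. The authors removed spots not above background and normalized with spike-ins in limma and vsn to log2 values. Set against the processed signals, these deposited log2 values yielded a factor and an additive constant per array (constants 3.16 to 19.6, largest misfit 5e-09), which were applied here to all spots. A refit of the model, with constants from 166 to 257, was an alternative.

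Outlier spots and controls were left out, spots of a probe were averaged, and 34038 of 55681 probes well above background on at least 4 arrays were tested in limma 3.58.1 (R 4.3.3), tested on simulated data first. Other computations used Python 3.11.15, numpy 2.4.6, scipy 1.17.1, pandas 2.3.3 and matplotlib 3.10.9. Gene names were assigned through RefSeq transcripts to 26582 probes. Per list, up to 5 called genes were to be named, with the ligands of the receptors and, per receptor, the 2 nearest genes well above background on all arrays. The genes of a list that were not called, those past the adjusted p alone and a further called signaling gene were named after their values were seen. A few genes that these rules select are not reported here. Summed levels are sums of normalized intensities over a list. The receptors and lists were chosen with earlier results of these data known. Alternatives were other scalings, filters, tests and blocks, and each mouse left out.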

Additional observations from a re-analysis of the deposited data

Results flagged for a closer look

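Cx3cr1 in the sham-operated mice held 1 value apart from the rest. Sham replicate 4 had a log2 value of 6.997, while the other sham-operated mice lay between 7.60 and 7.70, and the gap made up 0.865 of the range of the group. Chance alone marks about 1 in 20 groups of this kind, and Cx3cr1 was the only one of the 9 receptors marked in either group. Without this mouse the difference between MI and sham-operated mice was -0.81 on the log2 scale (limma adjusted p = 0.0623), beside -0.64 with all mice.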

How the results depend on the processing

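The precision is limited by 4 arrays per group and, for Ccr1 and Cxcr3, by signal near the background. The number of receptors called was 6, and it was 2 (Cxcr2 and Cxcr6) with the refitted spike-in model and with normexp. It was 3 in the first array row alone and 4 with a plain t-test under Benjamini-Hochberg adjustment. With significance analysis of microarrays, run here with spots not well above background kept, it was 6. The authors used this procedure after removing such spots. Their cytokine receptor pathway of differentially expressed genes lists Cxcr2, Cxcr4, Cxcr6, Ccr2 and Ccr7 but not Ccr1. When single mice were left out, the number of receptors called was 5 to 6, with 5 without sham replicate 4 (Ccr2 at 0.97). Receptors with an adjusted p under 0.05 numbered 6, 3 in the first row alone and 6 to 7 with single mice left out. Below the threshold fell Ccr2 (t-test, 1.15, adjusted p = 0.0797; first row, 0.78), Cxcr6 (t-test, 2.03, adjusted p = 0.0584), and in the first row Ccr7 (0.93) and Cxcr4 (1.04). Cx3cr1 passed it with normexp (-0.60) and without MI replicate 4 (-0.95), and lay above 0 in the second row alone (0.0364). Cxcr3 was above 0 in the second row alone (0.0176) and without MI replicate 3 (0.14). With single mice left out, log2 differences ranged from 0.97 to 1.24 for Ccr2, 2.15 to 2.57 for Ccr1, 1.02 to 1.26 for Ccr7, 3.16 to 3.44 for Cxcr2, -0.33 to 0.14 for Cxcr3, 1.07 to 1.33 for Cxcr4, 1.78 to 2.29 for Cxcr6, -0.95 to -0.40 for Cx3cr1 and -0.49 to -0.18 for Ackr3. Probes called numbered 1184, with 333 in the refitted model, 522 with normexp, 576 with the t-test, 523 in the first row and 1046 to 1461 with single mice left out. List genes of ligands, receptors and signaling called numbered 21, with 12 in the refitted model, 13 in the first row and 18 to 22 with single mice left out. They numbered 16 after scaling to the 75th percentile, 17 with quantile normalization and 14 with normexp. At the 75th percentile, Vav1 (0.91), Arrb2 (0.95) and the dendritic cell marker Fscn1 (0.96) were also below 2-fold. Marker genes called numbered 13, with 8 by the t-test and 12 to 15 with single mice left out. Pairs of genes that separated the groups numbered 10, with 9 in the refitted model and 9 with normexp (both Ccr1 pairs lost, Cxcr3 minus Ptprc gained), 12 in the first row and 10 to 11 with single mice left out. With 2 mice per group in a row, complete separation has an exact permutation p of 0.333, so the count of 12 says little about stability. The causes were not tested beyond the construction of each alternative.

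The groups share replicate numbers, and deviations of same-numbered mice correlated with r of 0.238, 0.292, 0.143 and 0.0114 for replicates 1 to 4. Since replicate 4 showed no such relation and MI replicates 3 and 4 and sham replicate 4 correlated best with another number, the numbers were not taken to pair the mice. With the replicate block, 6 receptors and 1155 probes were called. By limma, 6778 probes and 7 receptors had an unadjusted p under 0.05. Ccr1 and Cxcr3 have no value when detection on all 8 arrays is required, the mean over probes exists only for Cxcr6, and the pairs of genes have no value under other detection filters, tests or blocks.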
